A study of Mus musculus with 2 samples.

Results

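The 9 genes described here encode granzymes (Gzma, Gzmb, Gzmk, Gzmm, Gzmc), perforin (Prf1), the granule membrane protein Nkg7, the granule proteoglycan serglycin (Srgn) and Fas ligand (Fasl). They were chosen by symbol from the 32285 genes of the deposited matrices, and all 9 matched a gene of the annotation by identifier. The cells came from optic nerves of Nf1OPG mice (genotype Nf1 flox/mut with GFAP-Cre), which carry an Nf1 mutation in all cells, lose the remaining allele in GFAP-lineage cells and form low-grade optic gliomas. Nerves of 10 mice aged 12 weeks were pooled for each of 2 single-cell libraries, named C-ON and FMC_new, whose titles read "control" and "FMC new" with no further explanation. Both carry the same genotype label, so they were handled as 2 samples of 1 group and were not compared as conditions. No wild-type nerve was analysed here, so the levels describe the glioma-bearing nerve only.

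Cytotoxic lymphocytes kill through granules that hold perforin, which opens membranes, and granzymes, the serine proteases that perforin lets into the target cell. Serglycin keeps these proteins packed in the granule, and Nkg7 sits in the granule membrane and takes part in its release. Fas ligand acts apart from the granule, by binding Fas on the target cell. Granzyme A and granzyme K are tryptases that lie next to each other in the genome, whereas granzyme B and the mouse-specific granzyme C belong to another cluster and differ in the peptides they cut. T cells belong to the stroma that supports the growth of murine Nf1 optic glioma.

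After the study's limits on genes, transcripts and mitochondrial share, 8834 cells of C-ON and 16818 cells of FMC_new remained. Cells were placed in a class by marker genes alone. CD8 T cells numbered 555 and 2091, conventional CD4 T cells 179 and 716, regulatory T cells (Treg) 74 and 352, gamma-delta T cells 21 and 37, NK cells 78 and 235, and mast cells 3 and 4 (C-ON and FMC_new in that order, as in every pair of values here). Genes outside the gates were also read. Ctla4 was found in 98.6% and 93.5% of Treg, but also in 70.95% and 72.07% of CD4 T cells. Il2ra was found in 63.5% and 48.9% of Treg, against 17.3% and 10.8% of CD4 T cells. Ikzf2 was found in 85.1% and 84.7% of Treg, against 29.05% and 37.99% of CD4 T cells. Tbx21 was found in 60.3% and 46.0% of NK cells. Eomes was found in only 24.4% and 27.7% of NK cells. The NK gate does not separate NK cells from type 1 innate lymphoid cells, so the class called NK here may hold both. Of the gate genes, Ncr1 was found in 84.6% and 87.2% of NK cells and Trdc in 66.7% and 56.8% of gamma-delta T cells. Ncr1, an NK gate gene, was also found in 23.8% and 18.9% of gamma-delta T cells. All 21 gamma-delta T cells of C-ON, but 22 of 37 of FMC_new, lay in clusters made up mainly of T and NK cells. Whether the gamma-delta class holds NK cells or mixed barcodes was not tested. Median depth was 3986 and 3621 transcript counts (unique molecular identifiers, UMIs) per CD8 T cell, and 3217 and 3352 per NK cell. Mog, a gene of myelinating oligodendrocytes, was present in 24.1% and 9.47% of CD8 T cells, and its part in the results was not tested. The libraries shared 296 cell barcodes.

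The promoters of 4 members are shown because these genes separate the lymphocyte classes below. Prf1 and Gzma were highest in NK cells and Gzmk in CD8 T cells. Gzmb was highest in Treg in C-ON and in NK cells in FMC_new. Each sequence is the 250 bases before the RefSeq transcription start (GRCm38.p6, 5′ to 3′ on the strand of the gene), and capitals mark matches to the motifs named after it.
Prf1, chr10:61297586-61297835, plus strand: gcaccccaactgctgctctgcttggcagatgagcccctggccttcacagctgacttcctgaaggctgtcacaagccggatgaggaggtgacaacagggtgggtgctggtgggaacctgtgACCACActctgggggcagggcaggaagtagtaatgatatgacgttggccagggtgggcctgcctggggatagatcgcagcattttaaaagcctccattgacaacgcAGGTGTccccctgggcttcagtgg
Gzmb, chr14:56262335-56262584, minus strand: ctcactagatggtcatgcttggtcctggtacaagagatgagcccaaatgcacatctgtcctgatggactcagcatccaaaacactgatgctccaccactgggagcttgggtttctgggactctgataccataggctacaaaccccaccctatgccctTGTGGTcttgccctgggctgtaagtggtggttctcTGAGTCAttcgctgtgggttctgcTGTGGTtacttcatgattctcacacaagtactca
Gzma, chr13:113100982-113101231, minus strand: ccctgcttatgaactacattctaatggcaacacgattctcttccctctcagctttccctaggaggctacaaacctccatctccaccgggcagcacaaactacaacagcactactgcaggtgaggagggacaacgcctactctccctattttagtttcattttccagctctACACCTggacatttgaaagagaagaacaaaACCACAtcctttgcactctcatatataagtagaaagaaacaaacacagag
Gzmk, chr13:113180966-113181215, minus strand: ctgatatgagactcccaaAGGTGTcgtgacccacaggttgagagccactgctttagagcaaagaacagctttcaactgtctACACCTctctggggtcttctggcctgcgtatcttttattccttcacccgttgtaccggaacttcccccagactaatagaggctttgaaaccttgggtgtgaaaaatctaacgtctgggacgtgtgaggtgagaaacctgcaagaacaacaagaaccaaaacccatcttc
Both strands were searched for AGGTGT (the core bound by T-box factors such as T-bet and Eomes), TGTGGT (the core bound by Runx factors), TGANTCA (AP-1) and TGACGTCA (CRE), and no matches overlapped. The members have 11 windows, since Gzmm and Srgn have a second one, which held no match. The T-box core was found in 4 of 9 member genes (Gzma, Gzmk, Prf1 and Nkg7). By window this was 4 of 11, against 11.8% of the 32851 promoter windows of the same length. The Runx core was found in 7 of 9 genes (all but Gzmk and Fasl) and in 7 of 11 windows, against 14% of all windows. The Gzmk window held 2 T-box cores and no Runx core, whereas the Gzmb window held 2 Runx cores and 1 AP-1 match with no T-box core. The Gzmc window held the only CRE match among the members, a motif found in 1.55% of windows, and AP-1 matches occurred in 6.75%. These matches describe the windows and do not show binding.

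To ask which lymphocytes of the glioma-bearing nerve carried the cytotoxic program, the level of each member was measured in each library as its UMIs per 1000000 UMIs of the class (CPM). NK cells and CD8 T cells differed in Gzma and Gzmk. Gzma reached 2022 and 1833 CPM in NK cells, and was found in 50% and 46.8% of them. In CD8 T cells Gzma was 67.1 and 99.3 CPM, present in 5.23% and 6.79% of cells. Both libraries thus placed NK cells far above every T cell class for this gene. A single CD8 T cell held 79 of the 192 Gzma UMIs of C-ON (41.1%), and the level there was 39.6 CPM without it. CD4 T cells had 3.29 and 8.16 CPM of Gzma, and Treg 0 and 5.73 CPM. Gamma-delta T cells had 0 CPM in C-ON and 122 CPM in FMC_new, the latter from 23 UMIs in 2 cells. By a limit of 3 counts, 0 of 74 Treg and 0 of 21 gamma-delta T cells in C-ON allow shares of cells with a Gzma UMI of up to 4.05% and 14.3%.

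**Figure D1:**
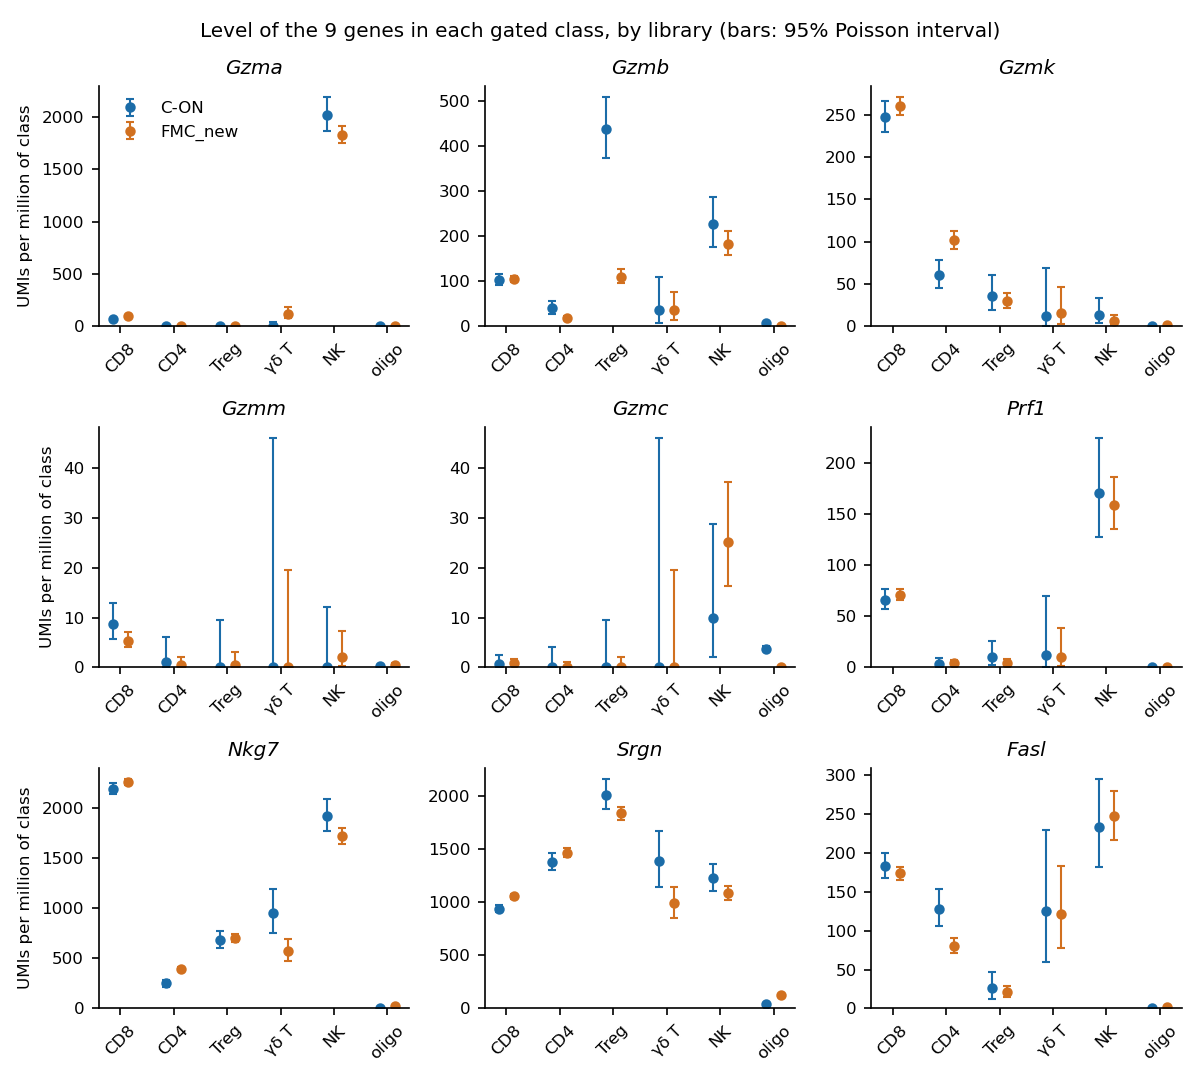
Level in UMIs per 1000000 UMIs of the class (CPM, y axis) for each of the 9 genes in CD8, conventional CD4, regulatory, gamma-delta T and NK cells, and in oligodendrocyte-gated cells as a background, with 1 point per library and 95% Poisson intervals. Gzma and Prf1 stand highest in NK cells, Gzmk in CD8 T cells, Gzmb in the Treg of C-ON, while Srgn is high in all 5 lymphocyte classes.

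Gzmk, a granzyme often carried by memory T cells, had the opposite distribution. CD8 T cells showed 248 and 260 CPM of Gzmk, with a UMI in 52.3% and 46.5% of cells. NK cells showed 13.2 and 6.05 CPM, from 4 and 6 UMIs in all, with the 4 of C-ON in 1 cell. CD4 T cells lay between, at 60.3 and 102 CPM and in 16.2% and 23.5% of cells, followed by Treg at 36 and 29.8 CPM. The CD8 intervals did not overlap those of the CD4, Treg, gamma-delta T or NK cells in either library, whereas the C-ON intervals of CD4 T cells and Treg did overlap. CD8 T cells held 78.7% and 69.4% of all Gzmk UMIs of a library although they made up 6.28% and 12.4% of its kept cells. Cells gated on pituitary endocrine genes made up 0.0792% and 4.61% of the kept cells, so these are not shares of the nerve alone.

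Gzmb, the granzyme that cleaves caspases, was shared by 3 classes. It was 103 and 105 CPM in CD8 T cells, where the intervals of the libraries overlapped. NK cells had 227 and 184 CPM. Treg had 437 CPM in C-ON and 111 CPM in FMC_new, a 2-library spread (274 ± 231 CPM, SD, n = 2) wider than that of any other class. A single Treg held 54 of the 170 Treg UMIs of C-ON, and 22 of 74 Treg (29.7%) had Gzmb there against 37 of 352 (10.5%) in FMC_new. Without the top cell of each library the Treg levels were 310 and 92.6 CPM. For FMC_new the Treg interval (95.5 to 127 CPM) overlapped that of CD8 T cells (98.2 to 111 CPM), so Treg stood above CD8 T cells only in C-ON. CD4 T cells had 40.6 and 18.4 CPM, with a UMI in 4.47% and 2.79% of cells.

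Perforin followed Gzma in its highest class but not in its share among CD8 T cells. Prf1 was 171 and 159 CPM in NK cells (38.5% and 29.4% of cells) and 66.4 and 71.0 CPM in CD8 T cells (20.4% and 18.7%). Prf1 was near the floor in the other classes, with 3.29 and 4.08 CPM in CD4 T cells and 10.3 and 4.01 CPM in Treg. The Treg of C-ON, which had the highest Gzmb level, therefore held only 4 Prf1 UMIs in 74 cells. CD8 T cells contributed 62.1% and 61.9% of all Prf1 UMIs in the kept cells of a library, and NK cells 17.0% and 14.2%.

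Gzmm and Gzmc were rare. Gzmm was found in 14 of 555 and 41 of 2091 CD8 T cells (8.74 and 5.37 CPM), and in at most 2 cells of each of the other lymphocyte and mast cell classes in either library. It was also found in 16 and 11 oligodendrocyte-gated cells. Gzmc was found in 2 of 78 and 10 of 235 NK cells (9.86 and 25.2 CPM), in 2 and 1 CD8 T cells and in no CD4, Treg or gamma-delta T cell. The remaining granzymes of the Gzmb cluster (Gzmd, Gzme, Gzmf, Gzmg and Gzmn) gave 1 UMI in the 6 classes of both libraries together. Gzmc shares 4.14% of its 50-base stretches with these relatives, while Gzma, Gzmb, Gzmk and Gzmm share none with another granzyme.

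Nkg7 was broader than the granzymes. It was 2187 and 2252 CPM in CD8 T cells and 1920 and 1714 CPM in NK cells, found in 95.3% and 94.6% of CD8 T cells and 83.3% and 89.4% of NK cells. Treg held 687 and 702 CPM, above CD4 T cells with 249 and 393 CPM in both libraries. Gamma-delta T cells lay at 949 and 572 CPM, carried by 7 of 21 and 16 of 37 cells. Nkg7 UMIs were also found in 1.47% of oligodendrocyte-gated cells of C-ON (median 7629 UMIs per cell) and in 11.1% of those of FMC_new (median 6504), at 2.92 and 21.1 CPM. All 5 lymphocyte classes lay above that background in both libraries.

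Srgn, which is used by most blood-derived cells for their granules, did not mark cytotoxic cells. Among the T and NK cell classes its level was highest in Treg (2009 and 1833 CPM). CD4 T cells had 1381 and 1466 CPM, gamma-delta T cells 1385 and 990.3 CPM, NK cells 1223 and 1084 CPM and CD8 T cells 938 and 1053 CPM. Cells gated as macrophages or microglia had 1269 and 1253 CPM and dendritic cells 2250 and 1933 CPM, and the 6 lymphocyte and mast cell classes together held 28.3% and 26.8% of the Srgn UMIs. In oligodendrocyte-gated cells Srgn was 45.2 and 130 CPM.

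Fasl followed neither the granzymes nor Prf1. NK cells had 233 and 247 CPM and CD8 T cells 183 and 174 CPM, with a UMI in 50.3% and 44.9% of CD8 T cells. CD4 T cells had 128 and 80.8 CPM, and 37.4% and 22.5% of them held a UMI. Gamma-delta T cells had 125 and 122 CPM from 10 and 23 UMIs, an interval that reaches across both of these classes. Treg had the lowest level of the 5 lymphocyte classes, 25.7 and 20.6 CPM, and their intervals lay below those of CD4 and CD8 T cells in both libraries.

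Mast cells, which store their own proteases in serglycin granules, were represented by 7 cells. Srgn was found in all 7, with 19 UMIs in C-ON and 17 in FMC_new. The other 8 members gave 0 UMIs, which allows a share of up to 42.9% of mast cells with a UMI. Neither library reached the 10 mast cells set as the minimum for a sum, so mast cells were not tested against the lymphocytes. Intervals and floors cover counting error only.

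**Figure D2:**
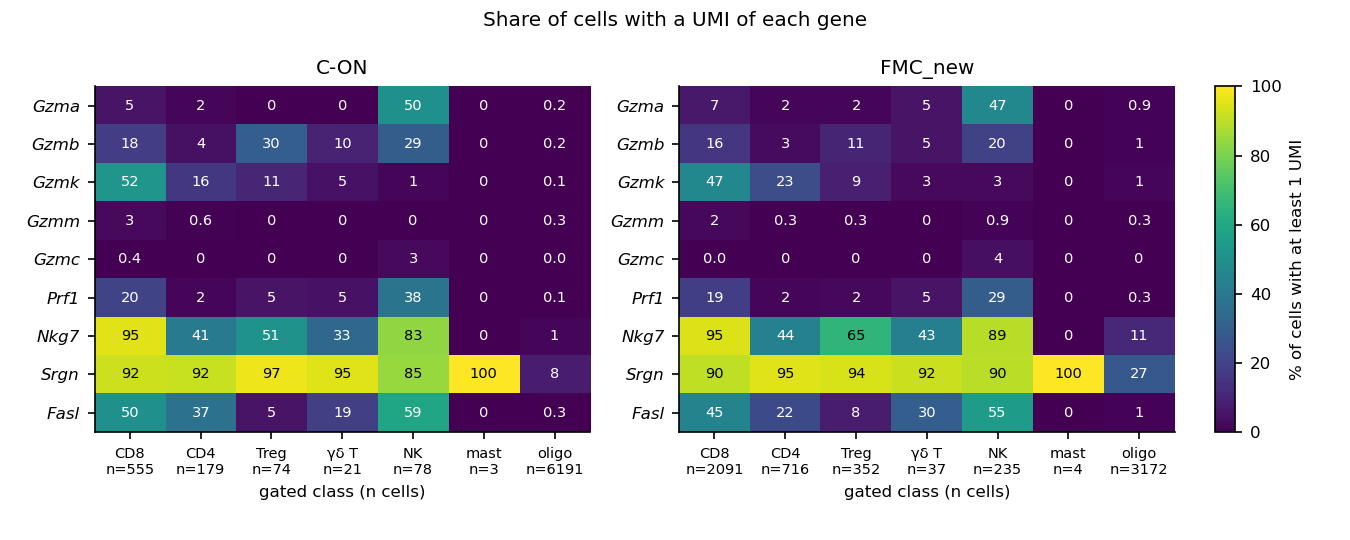
Percent of cells with at least 1 UMI of each gene (colour and number), by gated class and library, with the number of cells under each class. Gzma is found in 50% and 46.8% of NK cells, Gzmk in 52.3% and 46.5% of CD8 T cells, and the oligodendrocyte column (oligo) shows the background, which reaches 11.1% for Nkg7 in FMC_new.

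Shares were also taken at 1 depth. When each cell was thinned to 1500 UMIs, leaving out 24 and 135 shallower CD8 T cells, Gzmk was found in 28.6% and 29.7% of CD8 T cells, Prf1 in 8.85% and 8.08% and Nkg7 in 84.9% and 87.4%. Gzma was found in 42.6% and 41.7% of thinned NK cells. In oligodendrocyte-gated cells at full depth, Gzmk was found in 0.145% and 1.32%, Prf1 in 0.129% and 0.315%, and Gzma in 0.210% and 0.946%. The NK share of Gzmk (1.28% and 2.55%) was close to the oligodendrocyte share in FMC_new and its intervals cover it. By share at full depth, Gzmk in NK cells was thus not set apart from background there. These shares come from unlike depths, since oligodendrocyte-gated cells of FMC_new were deeper than NK cells. By level, NK cells of FMC_new had 6.05 CPM of Gzmk (2.22 to 13.2) from 6 UMIs. Oligodendrocyte-gated cells had 1.13 ± 1.31 CPM (mean and SD of the 2 libraries), which is not a value of FMC_new alone. In FMC_new, NK cells held 0.166% of the Gzmk UMIs and 1.00% of all UMIs. Oligodendrocyte-gated cells there held 1.21% of the Gzmk UMIs and 21.6% of all UMIs.

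The classes were then compared over the 2 libraries by edgeR's quasi-likelihood test on summed UMIs, with the library as a block and adjustment over all 10414 genes that passed the filter on low counts. The labels name 1 pool of mice per library, so the p-values measure the spread between 2 pools and classes, and not between animals. Of the 9 members, 7 passed that filter and Gzmm and Gzmc did not. CD8 T cells exceeded CD4 T cells in Prf1, Gzma, Nkg7, Gzmb and Gzmk, 5 of the 7 members tested, where 2.23% of all genes tested were called. Prf1 differed by 4.14 ± 0.27 on the log2 scale (SE; edgeR, adjusted p = 4.68e-05), with 4.34 and 4.12 in the libraries taken alone. Gzma differed by 3.82 ± 0.61 (edgeR, adjusted p = 0.00884) and Nkg7 by 2.81 ± 0.25 (edgeR, adjusted p = 0.000319). Gzmb differed by 2.02 ± 0.44 (edgeR, adjusted p = 0.0462) and Gzmk by 1.64 ± 0.22 (edgeR, adjusted p = 0.00375). Fasl was 0.83 ± 0.21 higher and Srgn 0.50 ± 0.16 lower in CD8 T cells, and neither passed the threshold (edgeR, adjusted p = 0.0913 and 0.24). Without the library as a block, 2 of the 7 members passed, Prf1 and Nkg7. All 7 passed with gates held within clusters, and also with cells of mixed lineage left out, an alternative chosen after seeing the data.

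Treg differed from CD4 T cells in 3 of 7 members, where 1.18% of all genes were called. Gzmb was higher by 3.11 ± 0.46 on the log2 scale (edgeR, adjusted p = 0.0111), with 3.43 in C-ON and 2.59 in FMC_new. Fasl fell by 2.18 ± 0.27 on the log2 scale (edgeR, adjusted p = 0.00474), and this difference passed under all 9 alternatives. Gzmk fell by 1.43 ± 0.28 (edgeR, adjusted p = 0.0425), a call kept under 5 of 9 alternatives. Prf1 differed by 0.42 ± 0.49 (edgeR, adjusted p = 0.938), with 1.65 in C-ON and -0.03 in FMC_new. Nkg7 was 1.11 ± 0.24 higher and Srgn 0.43 ± 0.17 higher, without passing (edgeR, adjusted p = 0.0656 and 0.426). Without the library as a block, 1 member passed, Fasl.

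Gamma-delta T cells, the smallest class tested, differed from CD4 T cells in 3 of 7 members, where 2.4% of all genes were called. Gzma was higher by 3.55 ± 0.76 (edgeR, adjusted p = 0.0413), a call that rests on 23 UMIs in 2 cells of FMC_new and none in C-ON. Nkg7 was higher by 1.17 ± 0.24 (edgeR, adjusted p = 0.0373) and Gzmk lower, falling by 2.50 ± 0.55 (edgeR, adjusted p = 0.0485). No member passed without the library as a block or when all deposited barcodes were used, and under gates that asked for 1 more marker Nkg7 turned to -0.67.

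NK cells differed from CD8 T cells in 3 of 7 members, where 4.56% of all genes were called. Gzma was higher by 4.53 ± 0.53 on the log2 scale (edgeR, adjusted p = 0.000871) and Prf1 by 1.19 ± 0.18 (edgeR, adjusted p = 0.00455). Gzmk fell by 5.09 ± 0.36 on the log2 scale (edgeR, adjusted p = 3.58e-05), and was the only member of this comparison called under all 9 alternatives. Gzmb was 0.89 ± 0.40 higher (edgeR, adjusted p = 0.335), which did not pass the threshold. Nkg7 (-0.36 ± 0.23), Fasl (0.39 ± 0.21) and Srgn (0.14 ± 0.17) did not pass either (edgeR, adjusted p = 0.562, 0.464 and 0.804). Without the library as a block, 1 member passed, Gzmk.

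**Figure D3:**
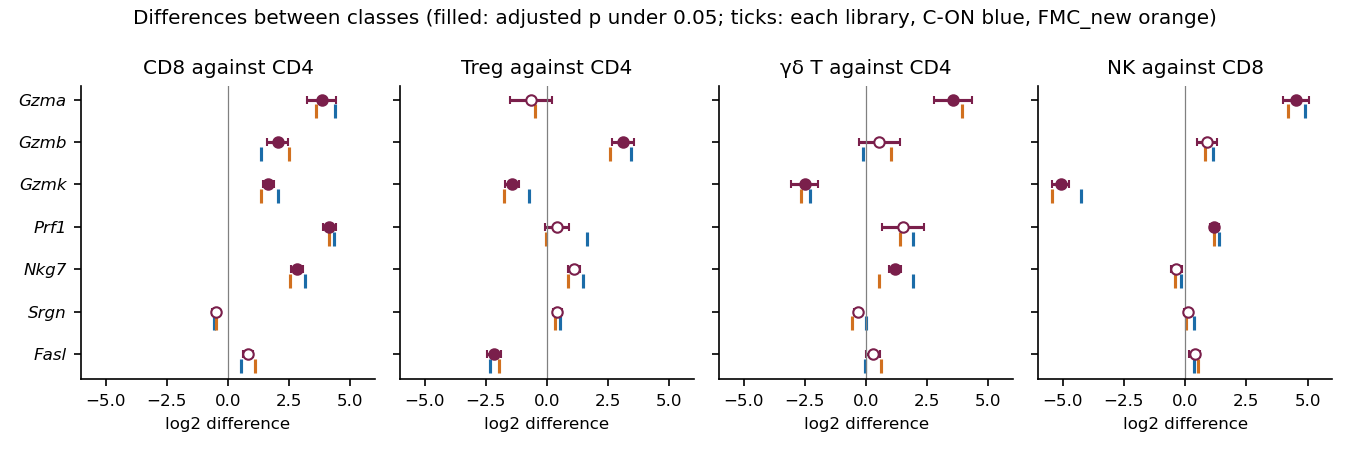
Log2 difference of each of the 7 members tested (x axis) in the 4 comparisons of classes, with SE bars, filled points for an adjusted p under 0.05 in edgeR, and ticks for each library alone. Gzma and Gzmk lie on opposite sides in NK against CD8 T cells, at 4.53 and -5.09, and in Treg against CD4 T cells Gzmb (3.11) passed the test while Prf1 (0.42) did not.

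In single cells, the granzymes of a class overlapped only in part. Of CD8 T cells, 37.7% and 33.2% held Gzmk without Gzma or Gzmb, 10.5% and 8.75% held Gzmk with Gzmb, and 2.34% and 2.34% held all 3. No UMI of the 3 granzymes was found in 41.4% and 47.2% of CD8 T cells, 43.6% and 48.5% of NK cells and 64.9% and 81.5% of Treg. Of NK cells, 25.6% and 29.8% held Gzma alone and 23.1% and 14.9% held Gzma with Gzmb. Of Treg, 24.3% and 7.95% held Gzmb alone, and 5.41% and 2.56% held it with Gzmk. These shares are descriptions of cells, which are not replicates.

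**Figure D4:**
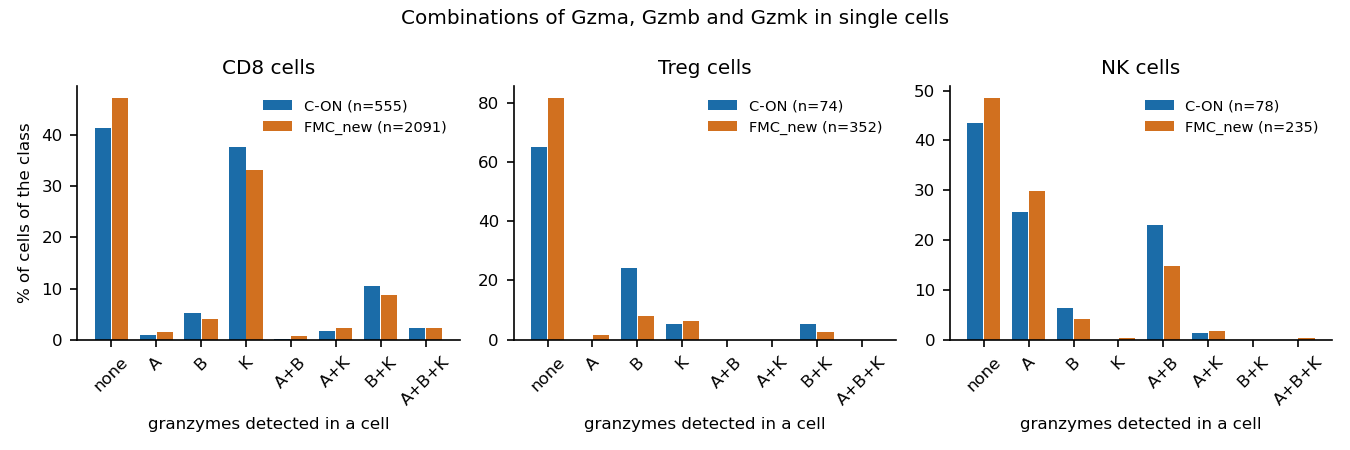
Percent of CD8, regulatory T and NK cells (y axis) with each combination of Gzma (A), Gzmb (B) and Gzmk (K) in 1 cell, as bars for each library. Gzmk alone is the most frequent combination in CD8 T cells (37.7% and 33.2%), Gzma alone and Gzma with Gzmb in NK cells, and Gzmb alone in the Treg of C-ON (24.3%).

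In both libraries the share of CD8 T cells with Prf1 was larger among cells with Gzmb than among cells without it. In C-ON 33 of 101 CD8 T cells with Gzmb held Prf1 (32.7%, exact 95% interval 23.7% to 42.7%), against 17.6% of those without Gzmb. In FMC_new the shares were 27.3% (22.5% to 32.4%) and 17.0%. Median depth of the cells with and without Gzmb was 4008 and 3961 UMIs for C-ON, against 3997 and 3560 UMIs for FMC_new. At 1500 UMIs per cell, C-ON had shares of 20.0% and 7.56%. FMC_new had 11.6% and 7.70%, where the interval of the first (7.40% to 17.0%) takes in the second. For Gzma in CD8 T cells the shares lay close together, with Prf1 in 17.2% and 18.3% of cells with Gzma and in 20.5% and 18.7% of cells without it. In NK cells, Prf1 was found in 51.3% and 46.4% of cells with Gzma and in 25.6% and 14.4% of cells without it.

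The members also varied within a class along genes that were not part of the gates. CD8 T cells with a UMI of Pdcd1, the checkpoint receptor PD-1, made up 53.7% and 56.9% of the class. They had 85.5 and 94.8 CPM of Prf1 against 39.6 and 33.5 CPM in CD8 T cells without Pdcd1, and 2679 and 2712 CPM of Nkg7 against 1494 and 1528 CPM. Gzmk was 200 and 204 CPM in cells with Pdcd1 and 314 and 348 CPM in cells without it. Gzmb (117 and 111 against 85.0 and 93.9 CPM) and Fasl (174 and 178 against 195 and 168 CPM) were closer. Cells with Pdcd1 were deeper, with medians of 4458 and 3843 UMIs against 3487 and 3400. At 1500 UMIs per cell, Pdcd1 was found in 36.8% of CD8 T cells with Gzmk and 36.7% of those without it in C-ON, so the inverse relation was not seen there, and in 34.8% and 42.7% in FMC_new. For Prf1 the thinned shares were 57.4% with and 34.7% without it in C-ON, and 58.2% and 38.8% in FMC_new.

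CD8 T cells with a UMI of Cxcr6, Itgae or Itga1, genes of tissue-resident lymphocytes, had 78.4 and 84.8 CPM of Prf1 against 29.8 and 26.5 CPM in the others, and 206 and 200 CPM of Fasl against 113 and 88.7 CPM. Gzmk hardly differed between them (250 and 263 against 241 and 249 CPM). Cells of the NK class split by the same genes showed the reverse for granule genes, and whether this split follows a cell type was not tested. NK cells without these genes had 3696 and 2627 CPM of Gzma, and those with them 529 and 705 CPM. Their Gzmb was 384 and 225 CPM against 87.1 and 125 CPM, and their Prf1 293 and 177 CPM against 62.2 and 134 CPM, where the FMC_new intervals of Prf1 overlapped. NK cells with a UMI of Eomes, a T-box factor of circulating NK cells, had 3942 and 2916 CPM of Gzma against 1361 and 1346 CPM in NK cells without it. CD8 T cells with Mki67 or Top2a, genes of dividing cells, had Gzmb at 109 and 107 CPM against 102 and 104 CPM in the rest. In Treg, cells with the resident genes held 570 and 139 CPM of Gzmb, against 171 and 46.9 CPM in the others.

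**Figure D5:**
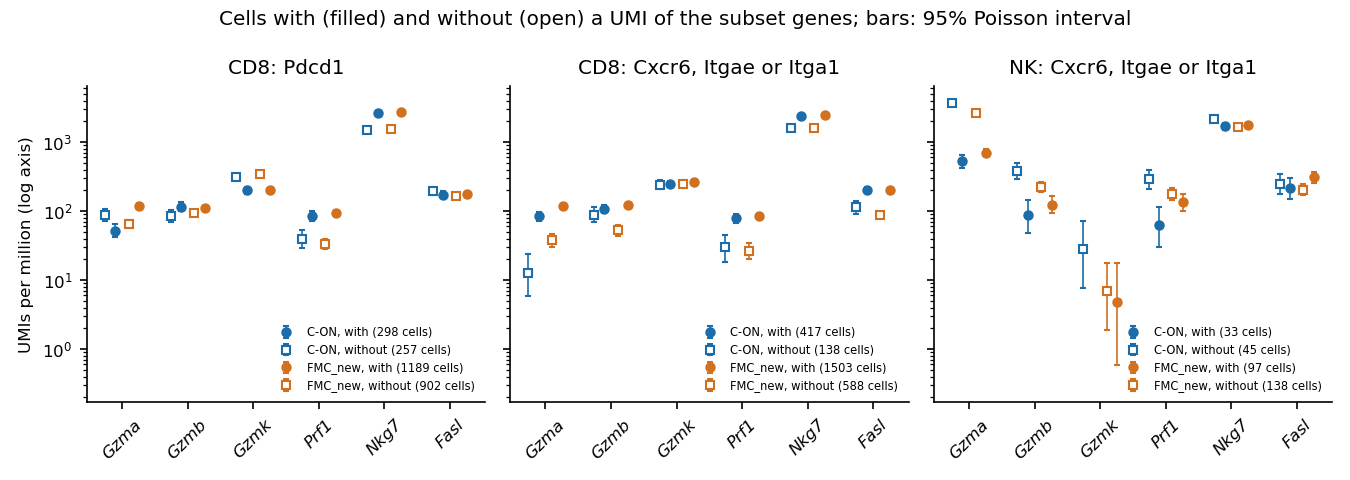
Level in CPM (log y axis) of 6 members in cells with (filled) and without (open) a UMI of Pdcd1 or of Cxcr6, Itgae or Itga1, by library, with 95% Poisson intervals; a level of 0 is not drawn. Prf1 is higher in CD8 T cells with Pdcd1 (85.5 and 94.8 CPM) than without (39.6 and 33.5 CPM), and Gzma is lower in NK cells with the resident genes.

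The wider cytotoxic machinery was read from lists of related genes, beside the 2.23% of all genes called between CD8 and CD4 T cells. Among receptors that regulate killing, 6 of 12 were higher in CD8 than in CD4 T cells and none lower. The largest differences were in Klrc1 (5.16 ± 0.31 on the log2 scale; edgeR, adjusted p = 2.98e-05), Klrd1 (4.21 ± 0.25), Crtam (3.79 ± 0.43) and Klrk1 (2.73 ± 0.33). This list mixes activating and inhibitory receptors, Klrc1 and Klrg1 being inhibitory, so a higher level does not by itself mean more killing. Among effector cytokines and chemokines, Ccl5 (3.62 ± 0.40), Xcl1 (3.18 ± 0.29), Ccl3 (1.80 ± 0.36) and Ccl4 (1.22 ± 0.22) were higher, 4 of 6, while Ifng was not (-0.67 ± 0.32; edgeR, adjusted p = 0.602). Of 9 genes of granule content and processing, Cst7 (1.97 ± 0.26), which encodes an inhibitor of granzyme-processing proteases, and Ctsw (1.15 ± 0.19) were higher. Of 10 release genes 1 was called, Stx11, which fell by 1.49 ± 0.28 on the log2 scale, and Rab27a (-0.08 ± 0.24) and Unc13d (0.04 ± 0.30) were not. Eomes was higher by 5.00 ± 0.47, the only call among 10 transcription factors, and Tnfsf10, the TRAIL ligand, was the only one of 6 death receptor genes (1.07 ± 0.21). None of 4 granzyme inhibitors was called.

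Between NK and CD8 T cells, where 4.56% of all genes were called, granzyme inhibitors and receptors were among the calls. The granzyme B inhibitor Serpinb9 (2.66 ± 0.25 on the log2 scale; edgeR, adjusted p = 0.000197) and Serpinb6b (2.48 ± 0.26) were higher in NK cells, 2 of 4 inhibitors, at 441 and 413 CPM of Serpinb9 against 54.5 and 74.4 CPM. Of receptors that regulate killing 6 of 12 were higher. Fcer1g (4.34 ± 0.44), Tyrobp (3.75 ± 0.47), Klrc2 (3.37 ± 0.27) and Cd244a (2.64 ± 0.29) were in front. Eomes (1.47 ± 0.26) and Tbx21 (1.12 ± 0.18) were higher, 2 of 10 transcription factors. None of 9 content genes, 10 release genes or 6 cytokines was called.

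Treg, which exceeded CD4 T cells in Gzmb, also exceeded them in Klrg1 (3.23 ± 0.39 on the log2 scale; edgeR, adjusted p = 0.00631), 1 of 12 receptors. Treg were higher in Serpina3g (1.51 ± 0.22) as well, 1 of 4 inhibitors, beside 1.18% of all genes called. They were lower in Tcf7 and Bach2, 2 of 10 transcription factors, which fell by 3.08 ± 0.38 and 1.30 ± 0.23, and in Xcl1 and Tnf, 2 of 6 cytokines, which fell by 1.91 ± 0.32 and 1.59 ± 0.24. No content gene (of 9), release gene (of 10) or death receptor gene (of 6) was called. Gamma-delta T cells, with 2.4% of all genes called, exceeded CD4 T cells in 6 of 12 receptors, led by Klrc1 (4.33 ± 0.42 on the log2 scale; edgeR, adjusted p = 0.000743), and in Serpinb9 (2.003 ± 0.37). The NK gate gene Ncr1 was higher in this class as well (5.78 ± 0.51; edgeR, adjusted p = 0.000448). Whether the receptor calls come from NK cells within the class was not tested. Ccl5 and Xcl1 were higher and Ccl4 lower in gamma-delta T cells, and Bhlhe40 fell by 1.58 ± 0.23 as the only call among transcription factors.

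Across the 10 sums of 5 classes and 2 libraries, the genes whose log2(CPM + 1) was most like that of Prf1 were Klre1 (Pearson r = 0.958, itself an NK gate gene), Ctsw (0.941) and Klra3 (0.937), among 11130 genes with at least 100 UMIs. Those most like Gzma were Tmem43 (0.967), Styk1 (0.967) and Adamts14 (0.961), and those most like Gzmb were Cuedc2 (0.936), Rbms1 (0.884) and Klrg1 (0.837). Gzmk was closest to Galnt18 (0.917), Nrn1 (0.916) and Dapl1 (0.911). The sums share libraries and depth and were few, so these values describe likeness over classes only. Gzmm and Gzmc had 83 and 39 UMIs and were left out.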

How the data were processed

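Dissociated optic nerves of Nf1OPG mice were profiled by droplet 5′ single-cell RNA sequencing in 2 libraries, each from 10 pooled mice. The authors deposited UMI counts per gene and cell barcode, made with Cell Ranger against mm10. The submitters' processing notes name Cell Ranger 7.2.0 and Seurat 5.2.1, and the study's methods give another Cell Ranger version. The files held 10845 and 21341 barcodes with 85101211 and 129113325 UMIs.

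Cells with 500 to 5000 genes, 500 to 20000 UMIs and at most 5% mitochondrial UMIs were kept. T cells needed 2 T cell genes, and Cd8a or Cd8b1, Cd4, or Foxp3 set the class. Gamma-delta T and NK cells needed 2 genes of their lists and mast cells 5. Scrublet (scanpy 1.11.5) marked 1 and 0 cells, which is too few to have worked, so no doublets were removed. Levels are UMIs per 1000000 UMIs of a class (CPM) with exact Poisson 95% intervals, and shares have Clopper-Pearson 95% intervals, both for counting error only. Differences came from edgeR 4.0.16 (R 4.3.3; TMM, filterByExpr, quasi-likelihood, Benjamini-Hochberg threshold 0.05) on counts summed per class and library, with the library as a block because sums of 1 library come from the same mice. For each class the difference between the 2 libraries was taken gene by gene. These between-library differences correlated at 0.0788 to 0.747 over 10 pairs of classes (median 0.431). A sum needed 10 cells, which left out mast cells. On simulated counts for CD8 against CD4 T cells (9915 genes), 22.1% of 2-fold and 86.9% of 4-fold changes were recovered with 3 false calls. The simulation gave all genes 1 fixed spread, no library effect and no other class difference, so these rates need not hold for the data. DESeq2 1.42.0 was an alternative, among others on filters, gates, block and depth. The members, gene lists and gates were chosen with earlier results of these data known. Named genes are the 9 members, up to 4 called genes with the largest difference in each related list with 1 key gene that was not called, and the 3 genes most correlated with a member. Some genes of the related lists and class checks are not reported here.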

Additional observations from a re-analysis of the deposited data

Results flagged for a closer look

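Granzyme UMIs were also found outside the 6 classes. In C-ON, 2 barcodes gated as oligodendrocytes held 190 of the 195 Gzmc UMIs of the library (97.4%) and 316 of its 1012 Gzmb UMIs (31.2%), with 19 Prf1 UMIs and no Gzma, Gzmk or Fasl UMI. They also held all 14 UMIs of Gzmd, Gzme and Gzmg in that library. Both had more UMIs than every NK cell of C-ON, and more than 95.2% and 97.1% of its oligodendrocyte-gated cells. Cells gated on plasma cell genes held 8 and 51 Prf1 UMIs and 25 and 55 Gzma UMIs in C-ON and FMC_new. In FMC_new, cells gated on B cell genes held 14 Prf1 and 6 Gzma UMIs, and cells gated on monocyte genes held 48 Gzma UMIs. Whether these barcodes hold more than 1 cell was not tested.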

How the results depend on the processing

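Over 9 alternatives, 212 of 252 member differences kept their direction and side of the threshold. Another 20 lost the call, 16 gained one and 4 changed sign. Among the 9, removal of the 1 cell that Scrublet marked left all 28 differences the same. It could hardly do otherwise, so it adds no support to the counts out of 9 alternatives. Of the 4 that changed sign only Nkg7 in gamma-delta against CD4 T cells had been called. It turned to -0.67 under stricter gates (edgeR, adjusted p = 0.1745). Fasl in the same comparison went from 0.29 to -1.28 under stricter gates (edgeR, adjusted p = 0.22), and Prf1 in Treg against CD4 T cells from 0.42 to -0.079 under stricter gates and -0.097 with mixed-lineage cells removed (edgeR, adjusted p = 1 and 0.9973). Counts are given for CD8 against CD4, Treg against CD4, gamma-delta against CD4 and NK against CD8, in that order. Genes called numbered 232, 123, 250 and 475, and became 586, 364, 597 and 933 with no filter on low counts, 46, 19, 96 and 173 without the replicate block, 557, 318, 386 and 842 with gates within clusters, and 535, 296, 343 and 836 with mixed-lineage cells removed, which was chosen after seeing the data. Members called numbered 5, 3, 3 and 3, and 2, 1, 0 and 1 without the replicate block. At an unadjusted p under 0.05, edgeR without the block gave 1257 genes for gamma-delta against CD4 T cells. For Treg, 5 members were called with gates within clusters and 5 with mixed-lineage cells removed. For gamma-delta T cells, 0 were called with all deposited barcodes (edgeR, 1410 genes at an unadjusted p under 0.05; DESeq2 on the filtered cells called 2 members) and 1 under stricter gates. For NK against CD8, 5 were called with no filter and 5 with mixed-lineage cells removed. Over both libraries, thinning took the share of CD8 T cells with Prf1 to 15.8% with Gzmb and 7.63% without. Of 29 levels with over 3 UMIs in both libraries, 6 moved by over 1.5 times under some alternative: Gzmb in CD4 T cells, Prf1 and Fasl in Treg, Nkg7 and Fasl in gamma-delta T cells, and Gzmk in NK cells. The cause was not tested for any of these. The 2 libraries, 21 and 37 gamma-delta T cells and 83 Gzmm UMIs limit what could be called.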
